A study of Mus musculus with 55 samples.

Results

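The genes described here are Glul, Oat, Cyp2e1, Slc1a2, Rhbg, Axin2, Lgr5 and Tbx3, 8 of the 37620 genes quantified in each liver. They were taken by symbol as genes known to be expressed in hepatocytes around the central vein under Wnt signalling, and no measured value entered that rule. The livers came from 55 untreated male mice of 29 Collaborative Cross (CC) lines. The CC is a panel of recombinant inbred lines bred from 8 founder strains, so that mice carrying the same line name (IL-72, IL-1061 and so on) are close to genetically identical. Of these lines, 8 had 1 mouse, 16 had 2 mice and 5 had 3 mice. The mice were 8 to 11.9 weeks old and weighed 12.8 to 38 g, were kept on ordinary chow in one facility, and received no treatment, so that the line is the only group that was compared.

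A liver lobule is arranged between portal tracts, where blood enters, and a central vein, where it leaves, and hepatocytes divide their metabolic work along that axis. Endothelial cells of the central vein secrete Wnt ligands and the R-spondin Rspo3, which stabilise β-catenin in the nearest hepatocytes. These pericentral cells capture residual ammonia as glutamine, hold much of the cytochrome P450 activity of the liver, and express feedback genes of the Wnt pathway. Glul is glutamine synthetase, Oat is ornithine aminotransferase, Cyp2e1 is the cytochrome P450 that oxidises ethanol and acetaminophen, Slc1a2 takes up glutamate and Rhbg transports ammonium. Axin2 is a scaffold of the β-catenin destruction complex that is itself induced by Wnt, Lgr5 is a receptor for R-spondins, and Tbx3 is a transcription factor that responds to β-catenin.

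Polyadenylated RNA was sequenced from whole liver, so that fewer pericentral cells and less RNA per pericentral cell cannot be told apart. The fragments assigned to genes ranged from 20.5 to 34.0 M per mouse (median 27.7 M), and the 20 most expressed genes took 25.0 to 39.6% of them. All 6 hepatocyte markers were expressed, with a summed level between 21413 and 81078 FPKM (fragments per kilobase of transcript, scaled to library size). The sums were far lower for markers of endothelial cells (13.7 to 80.5 FPKM over 7 genes), Kupffer cells (10.7 to 275 over 6), cholangiocytes (6.50 to 208 over 6) and stellate cells (12.0 to 136 over 6), and no marker was at 0 in every mouse. By Spearman correlation over 11284 genes, the nearest mouse was from the same line for 41 of the 47 mice that had another mouse of their line. The exceptions were all 5 mice labelled IL-1052 and IL-2750, each nearest to a mouse of the other of these lines, and IL-2146 replicate 2, nearest to the single IL-1141 mouse. Without IL-1052 and IL-2750, edgeR called all 8 genes among lines as with them. Correlations over line means without these lines are given below only for Oat with Cyp2e1 and Axin2 with Tbx3.

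RefSeq promoters (build GRCm38.p6) were available for 5 of the 8 genes, and not for Rhbg, Lgr5 and Tbx3. The 250 bases before the start site are shown 5′ to 3′ for 4 of them because Oat and Cyp2e1 were the metabolic pair that passed the test across lines, Slc1a2 came next to them, and Axin2 is the feedback gene. Capitals mark CTTTGA or CTTTGT on either strand, the core letters of the element that TCF/LEF partners of β-catenin bind.
Oat, chr7:132576399-132576648, minus strand: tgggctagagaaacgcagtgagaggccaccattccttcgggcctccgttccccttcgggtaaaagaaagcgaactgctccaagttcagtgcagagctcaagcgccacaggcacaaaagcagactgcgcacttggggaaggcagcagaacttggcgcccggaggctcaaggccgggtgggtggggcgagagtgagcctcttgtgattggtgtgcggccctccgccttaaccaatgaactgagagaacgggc
Cyp2e1, chr7:140763569-140763818, plus strand: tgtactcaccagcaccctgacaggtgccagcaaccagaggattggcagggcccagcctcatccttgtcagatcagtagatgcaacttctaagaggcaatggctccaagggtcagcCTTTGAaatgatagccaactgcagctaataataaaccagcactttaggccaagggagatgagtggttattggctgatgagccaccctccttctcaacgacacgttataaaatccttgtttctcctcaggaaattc
Slc1a2, chr2:102706188-102706437, plus strand: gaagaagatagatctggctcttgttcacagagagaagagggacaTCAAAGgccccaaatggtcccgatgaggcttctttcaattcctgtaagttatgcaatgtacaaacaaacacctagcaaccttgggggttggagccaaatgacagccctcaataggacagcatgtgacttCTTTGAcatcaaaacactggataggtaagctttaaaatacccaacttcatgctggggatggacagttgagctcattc
Axin2, chr11:108920099-108920348, plus strand: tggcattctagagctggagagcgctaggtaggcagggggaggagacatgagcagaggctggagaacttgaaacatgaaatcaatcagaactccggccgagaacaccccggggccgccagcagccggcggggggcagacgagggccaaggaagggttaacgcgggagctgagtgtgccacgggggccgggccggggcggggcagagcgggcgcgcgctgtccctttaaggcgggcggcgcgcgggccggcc

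The Cyp2e1 stretch held CTTTGA once, 135 to 130 bases before the start. The Slc1a2 stretch held it once on the opposite strand (206 to 201 bases before the start) and once on its own strand (77 to 72 bases before). No match was found in the stretches of Oat, Axin2 or Glul. Of all 32851 promoters of this length, 27.6% held at least 1 match, so that 2 of 5 is a description of these windows and no more.

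The first question was how far the 8 genes differed among lines. All 8 differed among the 21 lines with at least 2 mice (edgeR quasi-likelihood F test, Benjamini-Hochberg adjusted p between 2.82e-10 for Rhbg and 0.000591 for Tbx3). In the same test 88.5% of the 15285 genes tested were called, so that differing among lines did not set these genes apart. From the lowest to the highest line mean levels spanned a ratio of 5.73 for Cyp2e1, 8.21 for Glul, 9.94 for Slc1a2, 14.3 for Lgr5, 17.6 for Rhbg, 22.8 for Oat, 23.7 for Axin2 and 48.9 for Tbx3. The median ratio was 2.53 over 5771 genes of variable expression with a lowest line mean above 0.

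The end points of these ranges were set by a few lines, and between them the order was close to continuous. When the 29 line means of a gene were put in order, between 1 and 3 of the 28 steps between neighbouring lines were larger than their standard error. Sorting makes the steps between neighbours small, so that this count does not show how many lines differ from each other.

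**Figure D1:**
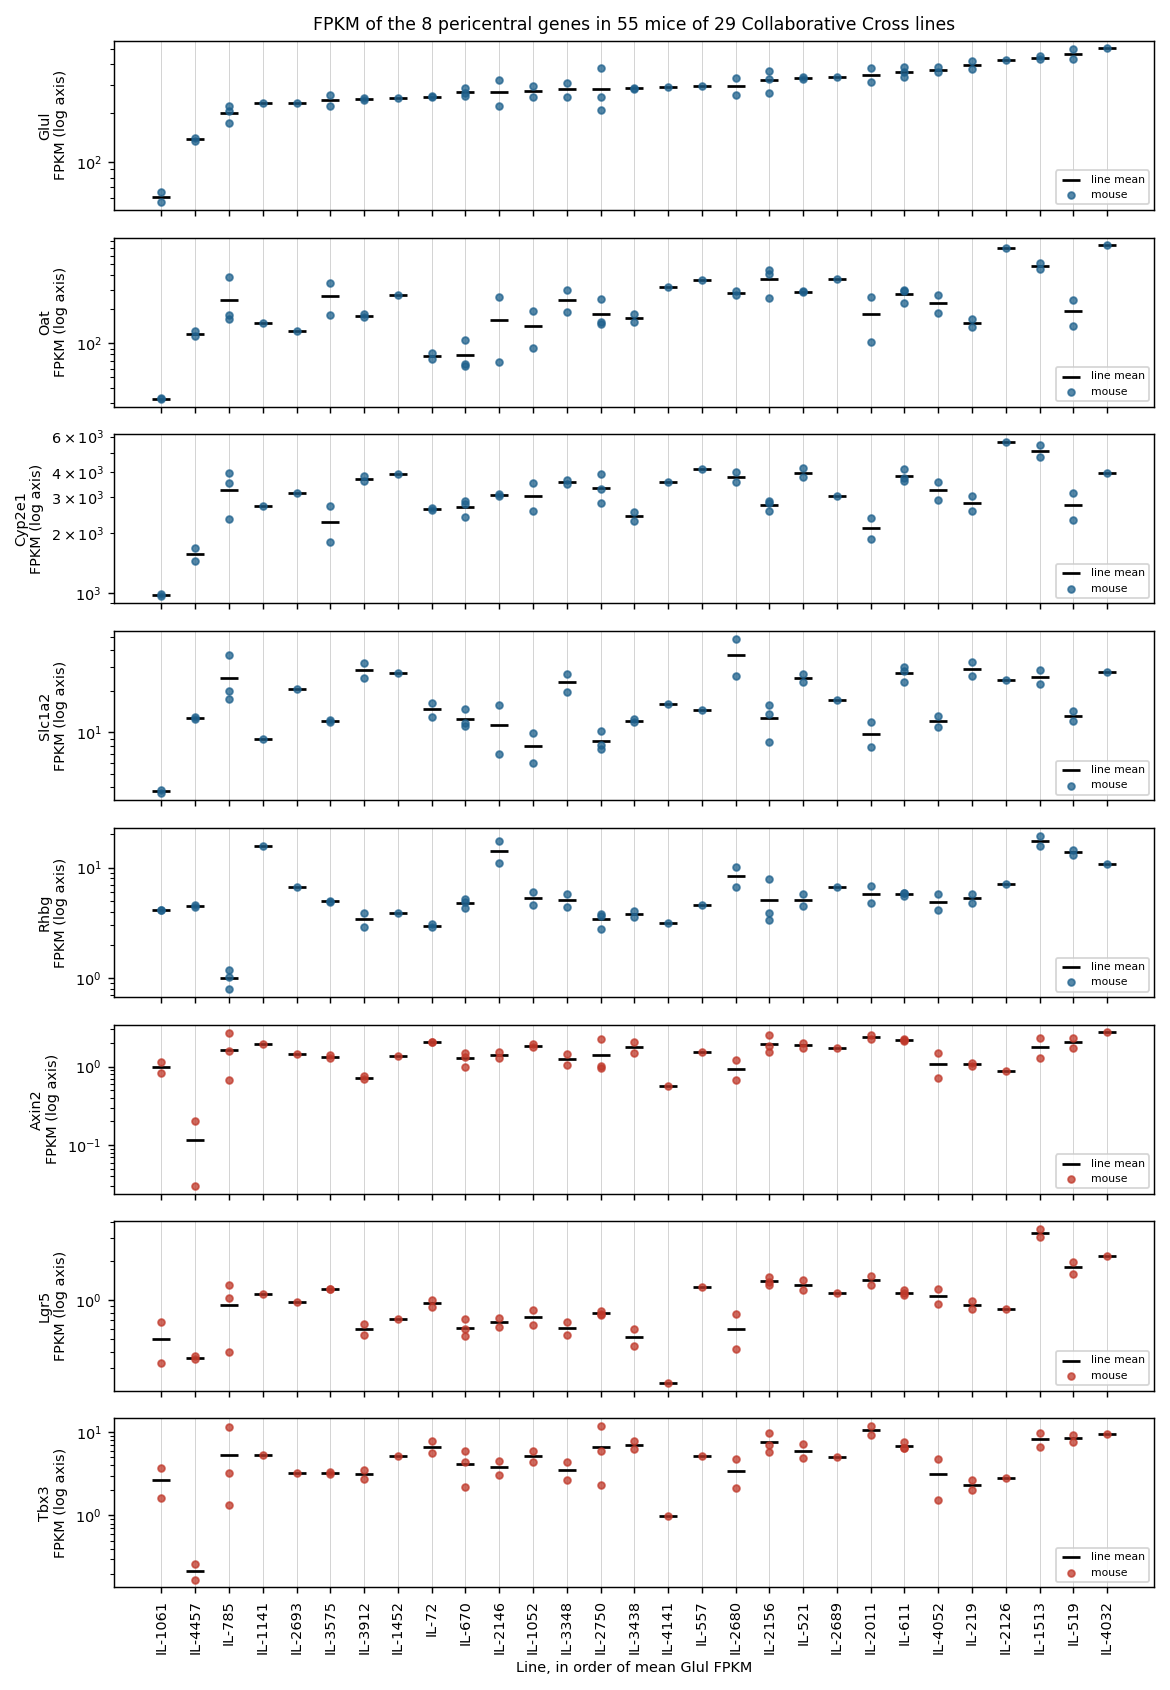
FPKM (log axis) of each gene in every mouse (points, blue for metabolic and red for signalling genes) and the mean of each line (bars), with the 29 lines in order of mean Glul FPKM. IL-1061 lies lowest for Glul, Oat, Cyp2e1 and Slc1a2, and IL-4457 lies lowest for Axin2 and Tbx3.

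Glul (ENSMUSG00000026473, NCBI build 37 chromosome 1, 155747074 to 155756853, plus strand) is the gene most tightly restricted to the last hepatocytes before the vein. Its level ranged from 56.6 to 501 FPKM over the 55 mice (median 287). The lowest line means were those of IL-1061, with mice at 65.4 and 56.6 FPKM, IL-4457 with 134 and 142, and IL-785 with 174, 222 and 207. These 3 lines did not overlap with each other, and the mean of IL-1061 was 4.67 times below the median line. At the high end stood the single IL-4032 mouse with 501, IL-519 with 494 and 429, and IL-1513 with 451 and 429, which overlapped. The edgeR adjusted p among lines was 4.8e-09.

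Oat (ENSMUSG00000030934, chromosome 7, 139749158 to 139768081, minus strand) breaks down ornithine in the same cells. It ranged from 32.3 to 741 FPKM with a median of 190. Both IL-1061 mice, at 32.7 and 32.3, were 7.01 times below the median line, and the next lowest mouse, of IL-670, had 63.0 FPKM. The next line mean was that of IL-72, with mice at 82.1 and 72.5 FPKM. The highest levels were in the single mice of IL-4032 (741) and IL-2126 (695) and in IL-1513 (460 and 514). Oat had an adjusted p of 3.3e-05 among lines by edgeR.

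Cyp2e1 (ENSMUSG00000025479, chromosome 7, 147949638 to 147960874, plus strand) was the most abundant of the 8 genes at a median of 3060 FPKM. The IL-1061 mice had 996 and 974 FPKM, and those of IL-4457 had 1449 and 1683. No other line had a mean below that of IL-4457. IL-2126 (5645, 1 mouse) and IL-1513 (5461 and 4762) were highest, and the adjusted p among lines was 3.45e-07 by edgeR.

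Slc1a2 (ENSMUSG00000005089, chromosome 2, 102498816 to 102630941, plus strand) ranged from 3.65 to 48.2 FPKM with a median of 14.7. IL-1061 was again lowest with 3.65 and 3.79 FPKM, 3.96 times below the median line and below every other mouse. The highest line mean, 37.0 in IL-2680, came from mice that differed widely, with 48.2 and 25.8 FPKM. Among lines the adjusted p was 3.71e-08 by edgeR.

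Rhbg (ENSMUSG00000001417, chromosome 3, 88046796 to 88091132, minus strand) followed another order. Its lowest line was IL-785, where all 3 mice (1.02, 0.79 and 1.18 FPKM) lay below every other mouse and 5.06 times below the median line of 5.05. IL-1061, lowest for the 4 preceding genes, had 4.09 and 4.13 FPKM of Rhbg and ranked 8 of 29. The highest line means were those of IL-1513 (19.5 and 15.6), IL-1141 (15.6, 1 mouse) and IL-2146 (17.4 and 11.1). The last 2 lines include the mouse whose nearest mouse by overall expression carried the other label. Rhbg was called among lines with an adjusted p of 2.82e-10 by edgeR.

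Axin2, the Wnt feedback gene (ENSMUSG00000000142, chromosome 11, 108781663 to 108812097, plus strand), was expressed at a low level, with a median of 1.5 FPKM and 4 to 319 fragments per mouse. In IL-4457 it had 0.2 and 0.03 FPKM, from 11 and 4 fragments, which was below every other mouse and 12.7 times below the median line. The single IL-4141 mouse was the next with 0.56 FPKM. The highest line means were those of IL-4032 (2.73, 1 mouse) and IL-2011 (2.25 and 2.56), and the adjusted p among lines was 2.24e-05 by edgeR.

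Tbx3 (ENSMUSG00000018604, chromosome 5, 120120678 to 120134733, plus strand) had its low extremes in the same lines. It stood at 0.26 and 0.17 FPKM in IL-4457 and 0.99 in the IL-4141 mouse, against a median of 4.82 over all mice. IL-4457 was 24.0 times below the median line, and its 2 mice lay below all others. IL-2011, with 11.7 and 9.29, had the highest mean. Tbx3 also varied within lines, with 1.35, 11.4 and 3.21 FPKM in the mice of IL-785 and 11.8, 2.31 and 5.86 in those labelled IL-2750, a label under which the mice were nearest to IL-1052 mice. Axin2 had 0.67, 2.7 and 1.56 FPKM in the same IL-785 mice and 2.25, 1.01 and 0.97 in the same IL-2750 mice, so that the highest mouse was the same for both genes in each line.

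Lgr5 (ENSMUSG00000020140, chromosome 10, 114887367 to 115024836, minus strand) was low throughout (median 0.89 FPKM, 28 to 503 fragments per mouse). Both IL-1513 mice, at 3.53 and 3.07 FPKM, lay above every other mouse, and IL-4032 followed with 2.2. The lowest were the single IL-4141 mouse at 0.23 and IL-4457 at 0.37 and 0.35, with which IL-1061 at 0.68 and 0.33 overlapped. The adjusted p among lines was 8.96e-08 by edgeR.

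The share of variance that lay between lines was summarised by the intraclass correlation of normal scores, as a description without a test. It was 0.833 for Lgr5, 0.815 for Rhbg, 0.788 for Glul, 0.737 for Cyp2e1, 0.694 for Oat, 0.693 for Slc1a2, 0.435 for Axin2 and 0.376 for Tbx3. The median over 5949 genes of variable expression was 0.592, which put Lgr5 at percentile 96.8 and Tbx3 at percentile 9.98. Axin2 and Lgr5 took too few distinct levels after rounding to count among those genes themselves.

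Read by line, the 8 genes did not move as a single block. IL-1061, IL-4457 and IL-670 were below the median line for all 8 genes, and IL-4032, IL-1513, IL-521 and IL-611 were above it for all 8. The other lines were mixed. With ranks counted from the lowest line mean of log2(FPKM + 1), the IL-2126 mouse, for instance, was highest for Cyp2e1 and ranked 28 for Oat, yet ranked 4 for Axin2 and 6 for Tbx3. IL-2011 ranked 3 for Cyp2e1 and 5 for Slc1a2, and 28 for Axin2 and 29 for Tbx3.

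The next question was which of the 8 genes rose and fell together across lines. Spearman correlations were computed over the 29 line means of log2(FPKM + 1), with p from 100000 permutations of the lines and adjusted over the 129084 pairs of one of the 8 genes with any tested gene. With 100000 permutations the smallest possible p is 1e-05, which came to an adjusted p of 0.0461, so that no pair could fall further below the threshold. Of the 28 pairs among the 8 genes, 25 were positive, 13 had an unadjusted p under 0.05 and 2 passed after adjustment, Oat with Cyp2e1 and Axin2 with Tbx3. Over all genes, the share with an unadjusted p under 0.05 ran from 5.90% for Glul to 15.5% for Cyp2e1. For comparison, the share of all genes called as positively correlated was 0.0186% for Oat, 0.0867% for Cyp2e1, 0.0062% for Slc1a2 and for Rhbg, 0.031% for Axin2, 0.0186% for Lgr5 and 0.0124% for Tbx3. As negatively correlated, 0.0062% were called for Axin2 and 0% for the other genes.

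**Figure D2:**
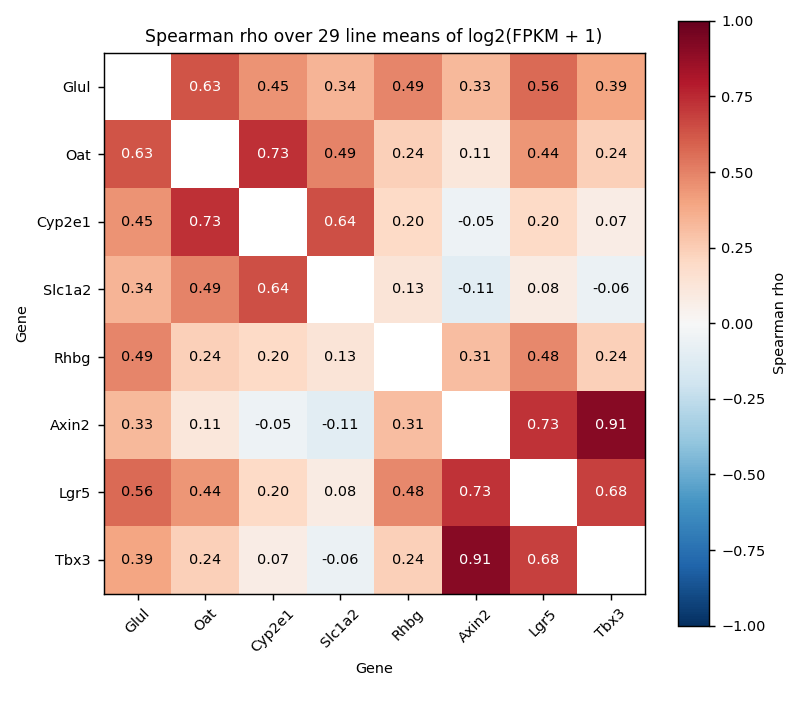
Spearman rho over 29 line means for each pair of the 8 genes (colour and printed value). The highest values are 0.91 for Axin2 with Tbx3 and 0.73 for Oat with Cyp2e1 and for Axin2 with Lgr5, and the lowest is -0.11 for Slc1a2 with Axin2.

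Axin2 and Tbx3 had the highest correlation of all 28 pairs, at rho = 0.911 (permutation p = 1e-05, the smallest that can be given, n = 29 lines) and Pearson r = 0.939 (permutation p = 1e-05, adjusted 0.0202). Without the 2 lines farthest from the median of Axin2, IL-4141 and IL-4457, r was 0.885. The gene pair also moved together among mice of the same line, where the deviations from the line mean had r = 0.775 over 47 mice and 0.764 over the 42 mice left without IL-1052 and IL-2750, given as a description because deviations of line mates mirror each other. Lgr5 correlated with both, at rho = 0.725 with Axin2 (adjusted permutation p = 0.0574; r = 0.669, adjusted permutation p = 0.0566) and 0.680 with Tbx3 (adjusted permutation p = 0.0745), and neither passed. By Pearson correlation Lgr5 with Tbx3 passed (r = 0.693, adjusted permutation p = 0.0421). Within lines the signalling genes did not stand apart in this way. Over the 47 mice the deviations had r = 0.24 for Axin2 with Lgr5 and 0.144 for Lgr5 with Tbx3. Oat with Slc1a2 had 0.755 and Cyp2e1 with Lgr5 0.516.

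Among the metabolic genes, Oat and Cyp2e1 had rho = 0.728 (permutation p = 1e-05, the smallest that can be given) and r = 0.771 (permutation p = 2e-05, adjusted 0.0258). Without IL-1061 and IL-4032, the lines farthest from the median of Oat, r was 0.659. This pair stood at the limit of the permutations. With 1000000 of them its adjusted p was 0.0550, above the threshold of 0.05, whereas that of Axin2 with Tbx3 was 0.0184. Without IL-1061 the rho of Oat with Cyp2e1 was 0.698 and its adjusted permutation p 0.0733, and without IL-1052 and IL-2750 they were 0.741 and 0.0698, and without IL-1141 and IL-2146 they were 0.739 and 0.0622. For Axin2 with Tbx3 the same omissions gave rho = 0.909 (adjusted permutation p = 0.0574) and 0.932 (adjusted permutation p = 0.0561). Its call did not hold there, although rho was little changed from the 0.911 of all 29 lines. In both omissions the number of permutations limited how far the adjusted p could fall. Without IL-1141 and IL-2146 the rho of Axin2 with Tbx3 was 0.920 and its adjusted permutation p 0.0461. Cyp2e1 with Slc1a2 reached rho = 0.641 (permutation p = 0.00021, adjusted 0.0975) and r = 0.717 (permutation p = 2e-05, adjusted 0.0258), and r = 0.615 without IL-1061 and IL-4457. Glul with Oat reached rho = 0.631 (permutation p = 0.00033, adjusted 0.113) and r = 0.720 (permutation p = 4e-05, adjusted 0.0335), with r = 0.553 without IL-1061 and IL-4457.

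Glul and Cyp2e1 showed how far 2 lines could carry a relation. Their Pearson r was 0.742 (permutation p = 0.00015, adjusted 0.0485), while rho was 0.447 (permutation p = 0.0154, adjusted 0.337). Without IL-1061 and IL-4457, which were lowest for both genes, r fell to 0.333 and rho to 0.315, so that the Pearson relation rested on those lines.

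By role, the 3 pairs among the signalling genes Axin2, Lgr5 and Tbx3 had rho between 0.680 and 0.911. The 10 pairs among the metabolic genes Glul, Oat, Cyp2e1, Slc1a2 and Rhbg lay between 0.128 and 0.728 with a median of 0.467, and Rhbg had the lowest of them. The 15 pairs that joined a signalling to a metabolic gene lay between -0.11 and 0.565 with a median of 0.237. Of these, 4 had an unadjusted permutation p under 0.05 and none passed after adjustment by Spearman or Pearson correlation. The highest was Glul with Lgr5 (rho = 0.565, adjusted permutation p = 0.181), and those near 0 included Slc1a2 with Tbx3 at -0.06 and Cyp2e1 with Axin2 at -0.05. The difference between these groups of pairs was not tested.

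**Figure D3:**
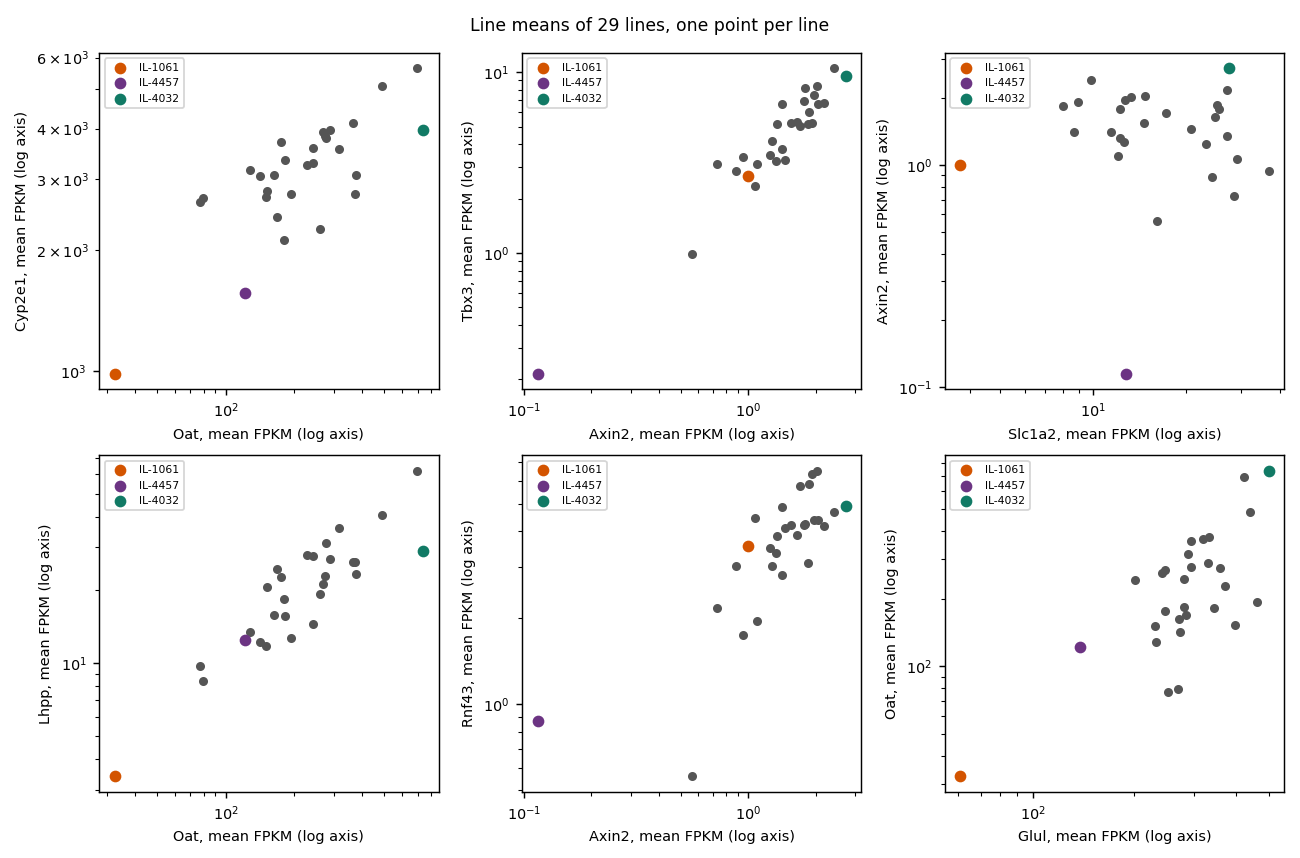
Line means in FPKM (log axes, one point per line, n = 29) for 6 pairs of genes (Oat with Cyp2e1, Axin2 with Tbx3, Slc1a2 with Axin2, Oat with Lhpp, Axin2 with Rnf43, Glul with Oat), with IL-1061, IL-4457 and IL-4032 marked. Oat with Cyp2e1, Oat with its neighbour Lhpp, and Axin2 with Tbx3 run along a diagonal, while Slc1a2 with Axin2 (rho = -0.11) shows none.

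The sample numbers in the labels allow a check within 2 runs of numbers, below and above 4400, although the labels do not say what the numbers mark. The line means of Axin2 and Tbx3 had rho = 0.461 and 0.453 with sample number (permutation p = 0.0125 and 0.0147, adjusted over 16140 genes 0.342 and 0.357). IL-785, which has mice in both runs, was left out. Within the 19 lines below 4400 and the 9 lines above it, Axin2 with Tbx3 had rho = 0.905 and 0.700, Oat with Cyp2e1 0.695 and 0.667, and Glul with Oat 0.486 and 0.90. Pairs of a signalling with a metabolic gene were mostly higher in the lines above 4400. Every pair of Axin2, Lgr5 or Tbx3 with Glul, Oat, Cyp2e1 or Slc1a2 was higher there. Their rho ran from -0.34 to 0.470 below 4400 and from 0.55 to 0.933 above it. Above 4400 each also exceeded its value over all lines. The widest gap was Slc1a2 with Axin2, at -0.34 and 0.90. Rhbg with Axin2 had 0.267 and 0.467. Only Rhbg with Lgr5 (0.502 and 0.367) and with Tbx3 (0.205 and 0.133) were lower above 4400. These differences were not tested. Depth had no relation to any of the 8 genes (Spearman rho between -0.06 and 0.193, with 0 of 8 called and 0 of 8 by Pearson correlation).

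Body weight and age were not related to the 8 genes at the threshold. The Spearman correlation with body weight was between -0.30 for Lgr5 and -0.02 for Tbx3, and with age between -0.25 for Lgr5 and 0.195 for Slc1a2. After adjustment 0 of 8 genes passed by Spearman or Pearson correlation, 0 of 8 had an unadjusted Spearman permutation p under 0.05, and 0% of the 16140 genes tested passed. The number of genes with an unadjusted p under 0.05 was 1098 for body weight and 900 for age.

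The other genes of the zone and of the pathway were then read against Glul, with no list tested as a set. None of the 16139 other genes passed with Glul after adjustment (0% in either direction), against 952 at an unadjusted Spearman permutation p under 0.05 and 9 by adjusted Pearson correlation, which bounds what the lists below can show. Of 14 other pericentral genes, 13 had a positive rho with Glul and 6 an unadjusted p under 0.05, with a median rho of 0.340 against 0.046 over all genes. The 2 highest were Gulo, an enzyme of vitamin C synthesis (rho = 0.593, adjusted permutation p = 0.155; Pearson r = 0.705, which passed), and Cyp1a2, a cytochrome P450 of caffeine metabolism (rho = 0.564, adjusted permutation p = 0.188). Of 13 periportal genes, 3 had a positive rho with Glul and 2 an unadjusted p under 0.05, with a median of -0.16.

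Cyp2f2, a cytochrome P450 of periportal hepatocytes, was the strongest of the periportal genes (rho = -0.62, adjusted permutation p = 0.133). It was highest of all lines in IL-1061, at a mean of 1195 FPKM against a median line of 728, and ranked 27 in IL-4457. Hal, which breaks down histidine, came next (rho = -0.41, adjusted permutation p = 0.398). Neither passed the test.

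**Figure D4:**
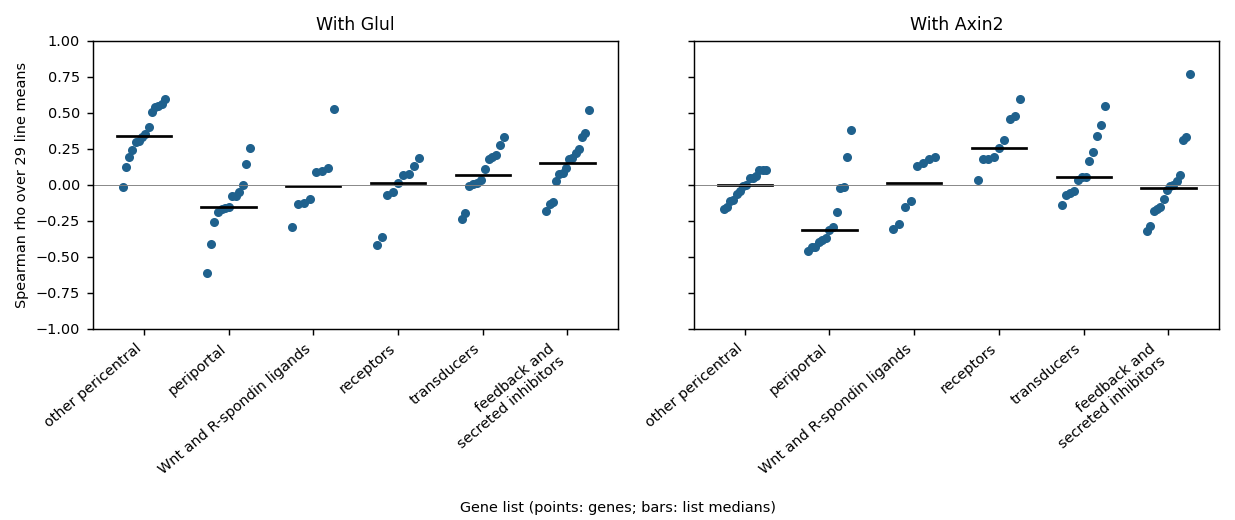
Spearman rho over 29 line means of the genes of 6 lists with Glul (left) and with Axin2 (right), one point per gene, with the median of each list as a bar. The other pericentral genes have a median of 0.340 with Glul and of -0.0039 with Axin2, and the periportal genes of -0.16 and -0.32.

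For the Wnt pathway, the ligand closest to Glul was Rspo3, the R-spondin of central vein endothelium (rho = 0.528, adjusted permutation p = 0.230), and Wnt11 followed with rho = -0.29. The 8 ligands as a list had a median of -0.01. The receptors Fzd4 (rho = -0.42, adjusted permutation p = 0.391) and Fzd6 (rho = -0.37) had the largest values of 9 receptors, whose median was 0.010. Among 12 transducers, the largest were Tcf7, a partner of β-catenin (0.334), and Pygo2, a cofactor (0.278). Among the 14 tested inhibitors and feedback genes, Nkd1, an antagonist induced by Wnt, had 0.519 and Znrf3, a ligase that removes frizzled receptors, 0.359. None of these passed, and Dkk2 and Sfrp5 were too low to be tested.

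Markers of other cell types were near 0 as lists, with median rho with Glul of -0.04 for endothelial, -0.02 for Kupffer, 0.107 for cholangiocyte, 0.108 for stellate and 0.0039 for general hepatocyte markers. The largest values in each list were 0.377 for Lyve1 and 0.200 for Stab2 (endothelial), 0.155 for Marco and -0.10 for Cd5l (Kupffer), 0.360 for Sox9 and -0.30 for Cldn4 (cholangiocyte), 0.280 for Dcn and 0.201 for Lrat (stellate), and 0.199 for Tat and 0.164 for Apoa2 (hepatocyte). None was called by Spearman or Pearson correlation, and 1, Lyve1, had an unadjusted p under 0.05. Their part in the levels of the 8 genes was not tested.

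With Axin2 the same lists gave other values, read against 13.9% of all genes at an unadjusted p under 0.05. The 14 other pericentral genes had a median of -0.0039, with 0 called by Spearman or Pearson correlation and 0 at an unadjusted p under 0.05. Of 13 periportal genes, 2 had a positive rho with Axin2 (median -0.32, 6 at an unadjusted p under 0.05, 0 called by either correlation). The endothelial markers had a median rho of -0.36 with Axin2 (3 of 7 at an unadjusted p under 0.05, 0 called by either correlation) and the hepatocyte markers one of -0.29 (2 of 6, with 0 called by Spearman and 1 by Pearson correlation), and with Tbx3 these medians were -0.39 (5 of 7) and -0.33 (3 of 6, again 0 called by Spearman and 1 by Pearson correlation), against 9.57% of all genes at an unadjusted p under 0.05. Their part in the levels of Axin2 and Tbx3 was not tested. Rnf43, a ligase induced by Wnt that removes frizzled receptors, passed (rho = 0.770, permutation p = 1e-05, adjusted 0.0461; r = 0.817) and was the only gene of these lists called with Axin2 by Spearman correlation. With Cyp2e1 the single called list gene was the pericentral uptake transporter Slco1b2 (rho = 0.744, adjusted permutation p = 0.0461), named here after its values were seen.

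The genes whose line means followed each of the 8 most closely were named by rank of rho. For Glul, beside Oat, they were Fermt1 (0.725), Gm16587 (0.666), Slc13a3 (0.638), Cib2 (0.630) and 4933437F05Rik (0.630), of which only Slc13a3, a dicarboxylate transporter at a median of 4.26 FPKM, and Cib2, at 2.94 FPKM, had a level above 0.5 FPKM. For Oat they were Lhpp (0.867), Pdzd8 (0.730) and the glutathione transferase Gstm2 (0.728). Lhpp, a phosphatase gene, starts at position 139802321 of chromosome 7, which is 34.2 kb from the start of Oat on the opposite strand, so that both genes lie head to head. Lhpp had its lowest line mean in IL-1061 (3.41 FPKM) like Oat, against a median line of 21.1. Among the 28 pairs of genes above only Axin2 with Tbx3 had a higher rho.

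Cyp2e1 was followed by Dcaf6 (0.803), the aspartate-glutamate carrier Slc25a13 (0.798) and Ube2e2 (0.798), and 14 genes passed in all. Slc1a2 was followed by the kinase gene Lats2 (0.751), Rbm33 (0.732) and Med13l (0.722), and Rhbg by Mras (0.746), Zmynd10 (0.704, at a median of 0.04 FPKM) and Pepd (0.701). After Rnf43, Axin2 was followed by Pcgf1 (0.767) and Gpr19 (0.757). Lgr5 was followed by Gtf2a1 (0.828), Zfp438 (0.772) and Mbd4 (0.721), and Tbx3 by Hist1h2bq (0.719, at a median of 0.03 FPKM), Pcgf1 (0.718) and Zfp438 (0.686). Pcgf1 and Zfp438 thus each appeared for 2 of the 3 signalling genes.

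Other genes were then read in IL-1061 and IL-4457, lines chosen because they lay lowest for several of the 8 genes. In each, 5 of the 8 ranked among the lowest 3 lines, which follows from that choice. In IL-1061, 5 of 14 other pericentral and 0 of 13 periportal genes ranked among the lowest 3. In the pathway, 0 of 8 ligands, 0 of 9 receptors, 3 of 12 transducers and 2 of 16 inhibitors and feedback genes did so. The share of all 10779 expressed genes, those with a line mean of at least 2 FPKM, was 13.3%. The lists also hold genes below that level, so that this share is not a like background for them. Among the highest 3 lines IL-1061 had 3 of 13 periportal genes, against 3.76% of all expressed genes. In IL-4457, 4 of 14 other pericentral and 1 of 13 periportal genes ranked among the lowest 3. There 2 of 8 ligands, 8 of 9 receptors, 6 of 12 transducers and 5 of 16 inhibitors and feedback genes did so. The share of all expressed genes was 23.7%. Fzd7, singled out here after its values were seen, lay lowest of all lines, at a mean of 0.18 FPKM in IL-4457 against a median line of 2.73. The feedback genes Znrf3 (0.55 against 1.19), Nkd1 (0.3 against 0.59) and Notum (4.885 against 10.46) were also lowest of 29 in IL-4457, and Rnf43 (0.875 against 4.11) ranked 2. Others of the 16 inhibitors and feedback genes ranked high there, with Csnk1a1 at 28 and Dkk4, at a mean of only 0.195 FPKM, at 23. In the same line 4 of 6 cholangiocyte markers and 3 of 7 endothelial markers ranked among the highest 3 lines, against 13.7% of all expressed genes, and 0 of 6 and 0 of 7 among the lowest 3. The part of those cell types in the levels of IL-4457 was not tested. No test was run for these single lines, and IL-1061 and IL-4457 have 2 mice each.

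At the level of isoforms, Oat, Cyp2e1 and Glul were carried almost wholly by 1 annotated transcript each (100%, 99.98% and 99.8% of the gene on average). Slc1a2 was the exception among well measured genes. The transcript ENSMUST00000111212, of 1957 bases, made up 41.1% ± 12.96 (SD over 29 line means) and ENSMUST00000111211, of 10972 bases, 32.9% ± 10.7, and the spread within lines was 5.48 and 4.78 percentage points. In IL-1513 the short transcript took 5.14 and 10.9% and the long one 65.6 and 68.1%. In IL-72 the short one took 61.7 and 62.5% and the long one 20.7 and 16.4%, without overlap between the lines. Their intraclass correlations were 0.734 and 0.715. The transcript ENSMUST00000005220, of 2127 bases, made up a further 24.0% ± 5.86 (SD over 29 line means). FPKM scales by transcript length. The IL-1513 mice had 5478 and 6762 fragments on Slc1a2, the second the most of any mouse, but 22.5 and 28.4 FPKM. The order by FPKM thus differs from that by the fragments that edgeR used. With short reads, shares of overlapping transcripts are estimates from the bases that tell them apart.

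**Figure D5:**
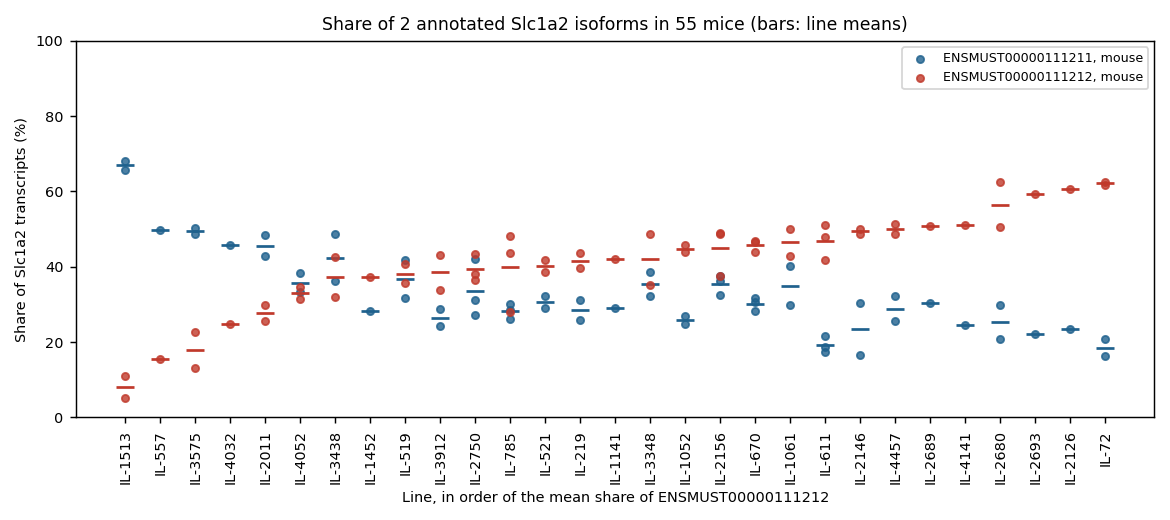
Share in percent of the Slc1a2 transcripts ENSMUST00000111211 and ENSMUST00000111212 in each of 55 mice (points) with line means (bars), in order of the second. The order runs from 8.01% in IL-1513 to 62.1% in IL-72 for ENSMUST00000111212.

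The shares of Rhbg departed furthest in IL-785. Its main transcript ENSMUST00000171887 averaged 92.4% over lines but 53.3, 34.5 and 53.9% in the 3 mice of IL-785, the line with the lowest Rhbg. There ENSMUST00000163277 took 47.4% on average, against 1.69% over all line means. Those mice had only 45, 29 and 58 fragments on the gene, so that the shares are coarse. In the single IL-2126 mouse the main transcript took 74.98% and ENSMUST00000165196 25.0%, against 5.90% over all line means. Of the signalling genes, Lgr5 was carried mostly by ENSMUST00000020350 (94.8% ± 3.89, SD over 29 line means) and Axin2 by ENSMUST00000052915 (74.7% ± 11.6). Tbx3 was divided between ENSMUST00000121021 (37.2% ± 7.86) and ENSMUST00000166556 (34.6% ± 12.2). For Axin2 and for Tbx3 ENSMUST00000121021 the spread within lines (13.99 and 11.5 percentage points) was larger than that of the line means.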

How the data were processed

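Liver RNA of 55 male mice was sequenced as stranded, polyadenylated libraries. Per the study's methods the authors aligned the reads with Bowtie 2 to the mm9 transcriptome and quantified them with RSEM 1.2.18. The deposited files give, for each gene and transcript of each mouse, the expected count, TPM and FPKM, and for each transcript its percent of the gene. The authors applied no normalization between mice beyond the scaling to library size of TPM and FPKM. Between 20.5 and 34.0 M fragments per mouse were assigned to genes, which leaves genes with few fragments, Axin2 and Lgr5 above all, the least precise.

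Samples were grouped by the line named in the labels, and replicate numbers follow deposit order. Nothing in the labels ties mice to a batch, so that no test takes a batch into account. The edgeR p-values weigh differences among lines against the spread between line mates. The correlation p-values come from permuting the lines. Differences among lines were tested on rounded expected counts with edgeR 4.0.16 (quasi-likelihood F test, TMM, filterByExpr, Benjamini-Hochberg adjustment, threshold 0.05) in 47 mice, those of the 21 lines that had 2 or more. In data simulated for this comparison with 4000 genes the test called 91 of 100 genes changed 2-fold, 99 of 100 changed 4-fold and 7 of 3800 unchanged genes. The simulation gave every gene the same dispersion and left most genes unchanged, unlike the real data, so that these rates need not hold for the 8 genes. Correlations used the 29 line means of log2(FPKM + 1) of the 16140 genes tested, two-sided permutation tests with 100000 permutations, and Benjamini-Hochberg adjustment over 129084 pairs (over 16140 genes for weight, age, depth and sample number). In the alternatives, only correlations of at least 0.5 were permuted, and a t approximation held the rank of the others. The intraclass correlation used van der Waerden scores of rounded FPKM. Genes named beside the 8 were those of each list called with Glul, or otherwise the 2 with the largest correlation, and the 3 (5 for Glul) most alike over line means. The 8 genes, the lists and the tests were chosen with earlier results of these data known. Promoter sequences are RefSeq's (GRCm38.p6), and gene positions are those of the files' build (mm9). Alternatives were another normalization (RLE), other filters on low counts, DESeq2 1.42.0, limma 3.58.1, Pearson correlation, other units and pseudocounts, and the omission of mice or lines. Python 3.11.15, scipy 1.17.1 and R 4.3.3 were used.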

Additional observations from a re-analysis of the deposited data

How the results depend on the processing

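All 8 genes were called among lines by edgeR under every alternative that tested them, and leaving out 1 mouse at a time gave 13129 to 13599 called genes. With at least 10 counts required in every mouse, Axin2 was not tested. The calls of correlated pairs depended far more on the setting. Against 2 of 28 pairs, 6 passed by Pearson correlation, 5 with TPM in place of FPKM, and 0 with library-scaled log2 counts (TMM), in the 21 lines with at least 2 mice, without IL-1052 and IL-2750, or with depth removed. Of the alternatives chosen after seeing the data, removing sample number, omitting IL-4457, omitting IL-1061 and IL-4457, or omitting IL-1141 and IL-2146 each left 1 pair, and omitting IL-1061 left 0. Leaving out 1 mouse at a time gave 0 to 4 pairs. Oat with Cyp2e1 then passed in 28 of 55 runs (rho 0.675 to 0.766) and Axin2 with Tbx3 in 33 of 55 (rho 0.850 to 0.926). Over the 14 other alternatives rho was 0.667 to 0.771 for Oat with Cyp2e1 (adjusted p 0.0219 to 0.339) and 0.835 to 0.939 for Axin2 with Tbx3 (adjusted p 0.0184 to 0.184). The smallest adjusted p that 100000 permutations allow depends on the setting, and 0.0461 is that of the main one. With 1000000 permutations the adjusted permutation p was 0.0184 for Axin2 with Tbx3 and 0.0550 for Oat with Cyp2e1. The cause of the lost calls was not tested. Of the listed genes, 1 passed with Glul by Pearson correlation and 1 with TPM, against 0 otherwise and 0 to 0 without single mice. No call was made for weight, age or sample number under any alternative run (0 to 0 without single mice). The median intraclass correlation of the 8 genes was 0.715, and 0.812 on log2(FPKM + 1) without rounding, with 0.685 to 0.752 without single mice. No value changed its direction past the threshold. Depth limits Axin2 and Lgr5 most. No paired analysis was possible because the labels give no replicate numbers shared across lines.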
